A study of Mus musculus with 8 samples.

Results

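Transcripts of 34 genes of the ciliary transition zone and basal body were examined in retinal pigment epithelium (RPE) of *Bbs8*-deficient mice. The genes were chosen by name as components of the Meckel-Gruber (MKS) and nephronophthisis (NPHP) modules, the inversin compartment and the distal appendages, together with a few partners at the centriole and the photoreceptor cilium, by a rule that uses no measured value. Ensembl identifiers of the count files were paired with symbols, which gave 33 of the 34 genes among 31011 identifiers with a symbol. *Tctn2* was not analysed here. All 33 passed the filter on low counts of at least 1 CPM (a gene's count scaled to a common library total) in at least 4 of the 8 libraries, as did 12889 genes in all.

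RPE cells were isolated on postnatal day 29 from 4 *Bbs8* knockout mice (*Bbs8*-/-) and 4 wild type littermates (*Bbs8*+/+), all on the C57/Bl6 strain and without treatment, and the sex was recorded as not determined. *Bbs8*, listed in the annotation as *Ttc8*, encodes a subunit of the BBSome, a coat complex that carries membrane proteins through the cilium. The labels name no Cre line or tissue-restricted driver for the knockout. The study states that the knockout was not conditional on the RPE, so that the adjacent photoreceptors lacked *Bbs8* too. RPE sheets were peeled from trypsin-treated eyecups after the retina and lens had been taken off, and each animal was a replicate. The libraries were made from the 3′ ends of transcripts (QuantSeq).

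The transition zone is the short stretch above the basal body where Y-shaped links join the microtubule doublets to the membrane, and it acts as the gate that decides which proteins enter or leave the cilium. MKS proteins, mostly membrane or B9-domain proteins, and NPHP proteins, mostly scaffolds, build this gate, while distal appendages anchor the mother centriole to the membrane before the cilium grows. In photoreceptors the connecting cilium is an elongated transition zone through which all outer segment proteins pass, and RPE cells carry a primary cilium during their development. Mutations in most of these genes cause ciliopathies in which the retina, kidney or brain is affected.

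A shared sequence feature was looked for in the promoters of the genes, since RFX transcription factors are known to bind an element called the X-box at genes of the cilium. RefSeq promoter windows on GRCm38.p6, each reaching from 250 bases before to 50 bases after a transcript start, were at hand for 30 of the 34 genes and for 27025 genes in all. An X-box form with both arms, GTNNCC followed after 2 bases by GGNAAC and read on either strand, stood in a window of 9 of the 30 genes (30.0%), against 1.49% of all genes with a window and 4 of 58 genes (6.90%) of a wider list of other transition zone, basal body and centriole genes. The single RFX arm GTTGCC can be part of the full form or lie elsewhere in the window. It was found in 13 of the 30 (43.3%), in 17 of 58 genes (29.3%) of the wider list and in 14.1% of all genes. The letters TAATCC, the core recognised by the photoreceptor factor CRX, were in 0 of the 30, in 4 of 58 (6.90%) of the wider list and in 8.14% of all genes. The 3 motifs were chosen with the expression values already known, and a match describes letters and not binding. The 9 matches are shown 5′ to 3′ in the direction of the gene with up to 8 flanking bases, and capitals mark the X-box form.
Ahi1 (chr10:20952560-20952589, forward strand): tagtctgaGTTACCTAGGCAACagcggcag
Cep83 (chr10:94688768-94688797, forward strand): ccctccgaGTTTCCCGGGCTACctcaacct
Mks1 (chr11:87853183-87853212, forward strand): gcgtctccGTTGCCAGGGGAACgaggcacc
Nphp4 (chr4:152477903-152477932, forward strand): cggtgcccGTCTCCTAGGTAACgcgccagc
Tctn1 (chr5:122264411-122264432, reverse strand): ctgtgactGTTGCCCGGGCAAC
Tctn2 (chr5:124598679-124598708, forward strand): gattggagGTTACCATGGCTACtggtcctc
Tmem216 (chr19:10555723-10555752, reverse strand): tgtacgcaGTTTCCATGGGGACtgaacatg
Tmem231 (chr8:111933781-111933810, reverse strand): cgccgtcgGTTGCCGTGGAGACtcggcgct
Tmem237 (chr1:59120102-59120131, reverse strand): tagtcagcGTTGCCATGGCGACgcctccgg

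**Figure D1:**
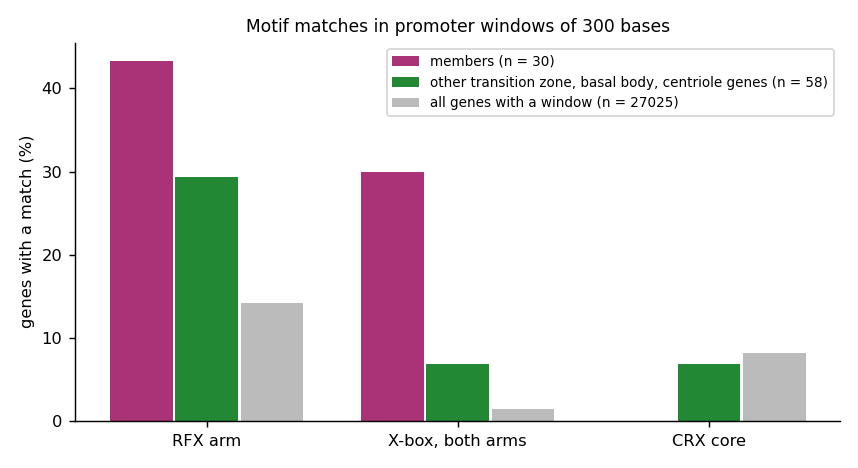
Bars give the percentage of genes (y axis, from 0) with at least 1 match to each of 3 motifs (x axis) in promoter windows of 300 bases, for the transition zone and basal body genes (n = 30), the wider list (n = 58) and all genes with a window (n = 27025). The X-box with both arms is at 30.0% in the first, 6.90% in the second and 1.49% in the third, and no window of the first set holds the CRX core.

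The first base of each match lay between 231 bases before and 36 bases after the transcript start. The left arm reads GTTGCC in *Mks1*, *Tctn1*, *Tmem231* and *Tmem237* and GTTACC in *Ahi1* and *Tctn2*. Of the 8 genes with an X-box that were also measured, 4 had a log2 fold change above 0 and 4 below 0 in *Bbs8*-/- RPE, between -0.42 and 0.74 with a median of 0.02. Of the 21 measured genes with a window but no such match, 8 were above and 13 below 0, with a median of -0.25. The difference between these sets was not tested.

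The *Bbs8*+/+ libraries held 2495094 to 3093428 counts on genes and the *Bbs8*-/- libraries 2389835 to 2736289, where 3 counts amount to 0.970 to 1.26 CPM. Such a floor covers counting error only, since the reads carry no molecular identifiers. The targeted gene followed its label, with 105, 142, 144 and 116 counts of *Ttc8* in *Bbs8*+/+ and 15, 5, 14 and 15 in *Bbs8*-/- libraries (two-sided exact permutation test of CPM, p = 0.029, the smallest possible with 4 against 4). All 12 RPE marker genes were detected, with none at 0. No rod, cone, lens or erythrocyte marker was at 0 either, so detection alone does not establish the RPE identity of the samples. The summed level of the RPE markers was 30452 to 31385 CPM in *Bbs8*+/+ and 39728 to 43215 CPM in *Bbs8*-/- libraries. Of the 12, 5 were higher and 3 lower, with a median log2 fold change of -0.02. Transcripts of adjacent tissue moved with the genotype. The 12 rod photoreceptor markers summed to 39860 to 41984 CPM in *Bbs8*+/+ and 18091 to 18862 CPM in *Bbs8*-/- libraries, with 11 of 12 lower and none at 0, and the 9 cone markers to 173 to 223 and 299 to 341 CPM, with 5 of 9 higher. All 16 lens markers and 5 of 6 erythrocyte markers were lower as well. Each of these sums differed without overlap. The test was made on the unscaled share of each list in the counts of a library (two-sided exact permutation test, p = 0.029, adjusted p = 0.0413 over 13 marker lists). Müller glia markers were 2171 to 2395 against 2780 to 2973 CPM (2 of 7 higher) and reactive glia markers 42.0 to 78.9 against 710 to 786 CPM (5 of 6 higher). Microglia, bipolar and amacrine, and fibroblast sums overlapped between genotypes, and 2 of 6 fibroblast markers were lower. Ocular surface markers summed to 0.339 to 2.61 CPM in *Bbs8*+/+ and 36.2 to 61.6 CPM in *Bbs8*-/- libraries, with *Krt12* at 0 throughout. Of these 7 markers 4 were tested, and 4 were higher. Endothelial markers summed to 27.0 to 34.5 and 32.4 to 44.8 CPM with none called. The permutation test of shares also gave p = 0.029 (adjusted p = 0.0413) for the RPE, Müller glia, reactive glia, ocular surface and endothelial lists. Markers of multiciliated cells were near the floor, with a sum of 11.4 to 20.5 CPM over 10 genes in all libraries and *Mcidas*, *Dnah5* and *Tekt4* at 0 throughout. In bulk RNA, fewer cells of a type and less RNA per cell cannot be told apart. One *Bbs8*+/+ library, replicate 1, differed from the other wild types more than they did from each other, at 6.07 to 7.51 against 2.87 to 3.41 for the chi-square of counts per degree of freedom. Pairs of *Bbs8*-/- libraries were between these ranges, at 4.17 to 5.05. The median correlation with the own group was 0.944 for *Bbs8*+/+ library 1 and 0.925 to 0.934 for the *Bbs8*-/- libraries.

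The comparison of genotypes asked whether loss of *Bbs8* goes along with altered transcript levels of the ciliary gate and its base. Of the 33 genes, 4 fell and 1 rose in *Bbs8*-/- RPE (two-sided quasi-likelihood test of edgeR with Benjamini-Hochberg adjustment over all 12889 genes, threshold 0.05). *Cep290*, *Lca5*, *Sclt1* and *Cc2d2a* fell by 0.46 to 0.80 on the log2 scale, and *Tmem237* rose by 0.52. Together this is 15.2% of the genes, where 12.3% of all tested genes were called. In the lower direction it was 12.1% against a background of 6.80%, and in the higher direction 3.03% against 5.46%. Over all 33 genes, called or not, 14 log2 fold changes were above 0 and 19 below, with a median of -0.10, beside 0.02 over all tested genes. With counts scaled by library size alone, 1 gene rose and 2 fell, and over all genes the split changed from 704 higher and 877 lower to 1005 and 657. Libraries of both genotypes were fully apart for 6 of the 33 genes, where 16.0% of all tested genes showed this. *Cep290*, *Lca5*, *Cc2d2a* and *Cep164* were apart on the lower side (8.62% of all genes) and *Tmem237* and *Nphp4* on the higher side (7.42%). At an unadjusted p under 0.05 the count was 7 of 33, where 23.4% of all tested genes were.

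**Figure D2:**
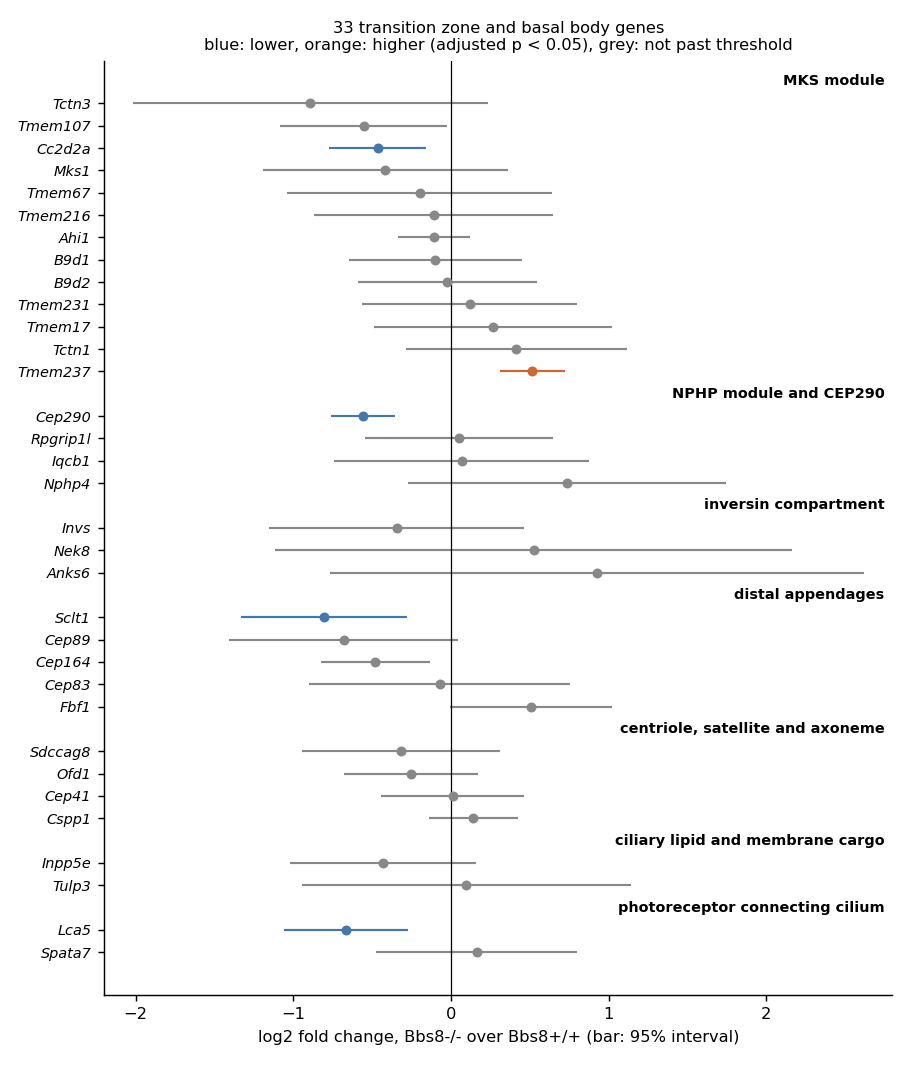
Points are log2 fold changes (x axis, *Bbs8*-/- over *Bbs8*+/+, n = 4 libraries each) of the 33 genes, grouped by role along the y axis, with bars for the 95% interval. The 4 blue genes fell and the orange gene, *Tmem237*, rose at an adjusted p under 0.05, while 14 of the 28 grey intervals hold a 2-fold change in at least 1 direction.

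*Cep290* (ENSMUSG00000019971, GRCm38 chr10:100487558-100574840, forward strand) encodes a coiled-coil protein that bridges microtubules and membrane in the transition zone and is long known for its place in inherited childhood blindness. Its level was 285, 276, 242 and 276 CPM in *Bbs8*+/+ libraries 1 to 4 and 183, 202, 189 and 159 CPM in *Bbs8*-/- libraries 1 to 4. Every *Bbs8*-/- library thus lay below every *Bbs8*+/+ library, with a gap from 202 to 242 CPM. The means were 269.6 ± 18.6 and 183 ± 18.1 CPM (SD, n = 4), and edgeR put the difference at -0.56 on the log2 scale (adjusted p = 7.14e-05, standard error 0.0995), or 32.1% lower. Whichever library was omitted, the estimate lay between -0.62 and -0.51 and the adjusted p at or below 0.00112. The last 1000 bases of *Cep290* overlap *4930430F08Rik* on the opposite strand, which had a mean of 27.3 counts against 606 for *Cep290*, and the strand setting of the counting is not given in the sources used here. The promoter window of *Cep290*, at chr10:100487332-100487631, is shown because the gene gave the smallest adjusted p of the 33, and it holds none of the 3 motifs, so that no base is in capitals.
Cep290: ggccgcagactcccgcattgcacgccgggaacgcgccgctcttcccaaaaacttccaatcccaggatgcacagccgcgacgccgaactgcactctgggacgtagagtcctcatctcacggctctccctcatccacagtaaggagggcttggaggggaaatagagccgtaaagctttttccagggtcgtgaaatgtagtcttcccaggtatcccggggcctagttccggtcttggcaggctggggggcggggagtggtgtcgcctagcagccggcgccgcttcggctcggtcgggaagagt

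The other 3 genes of the NPHP group were not called. *Iqcb1*, whose product binds Cep290 directly, was at 8.67 ± 3.57 and 9.08 ± 2.36 CPM (log2 fold change 0.07, 95% interval -0.74 to 0.88). *Rpgrip1l*, a scaffold of the transition zone, was at 15.2 ± 3.88 and 15.8 ± 2.91 CPM (0.05, interval -0.55 to 0.65). *Nphp4*, a structural scaffold, was at 1.69, 5.59, 6.54 and 4.09 CPM in *Bbs8*+/+ and 6.57, 9.32, 7.20 and 6.64 CPM in *Bbs8*-/- libraries. Its libraries did not overlap, by 0.03 CPM between the nearest pair, yet with a mean of 15.8 counts its log2 fold change of 0.74 did not pass the test (adjusted p = 0.406).

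*Tmem237* (ENSMUSG00000038079, chr1:59100590-59120408, reverse strand) encodes a tetraspan membrane protein of the MKS module and was the only gene of the 33 that rose in this test. It was at 157, 196, 197 and 172 CPM in *Bbs8*+/+ and 276, 277, 242 and 237 CPM in *Bbs8*-/- libraries. The lowest *Bbs8*-/- library was above the highest *Bbs8*+/+ library. The means were 180.4 ± 19.7 and 258 ± 21.5 CPM (SD, n = 4), and edgeR put the difference at 0.52 on the log2 scale (adjusted p = 3.11e-04, standard error 0.102), or 43.1% higher. It remained past the threshold without any 1 library, between 0.45 and 0.55, and under every other setting tried, the stricter threshold included. *Tmem237* and *Cep290* moved in opposite directions within the same libraries, so their ratio needs no scaling: there were 0.551, 0.712, 0.813 and 0.623 *Tmem237* counts per *Cep290* count in *Bbs8*+/+ libraries and 1.51, 1.37, 1.28 and 1.49 in *Bbs8*-/- libraries. This pair was chosen after the values had been seen, and the ratio is given without a test. Of 3 promoter windows of *Tmem237*, the one with an X-box, at chr1:59120047-59120346 on the reverse strand, is shown with the match in capitals, 27 to 14 bases before the start.
Tmem237: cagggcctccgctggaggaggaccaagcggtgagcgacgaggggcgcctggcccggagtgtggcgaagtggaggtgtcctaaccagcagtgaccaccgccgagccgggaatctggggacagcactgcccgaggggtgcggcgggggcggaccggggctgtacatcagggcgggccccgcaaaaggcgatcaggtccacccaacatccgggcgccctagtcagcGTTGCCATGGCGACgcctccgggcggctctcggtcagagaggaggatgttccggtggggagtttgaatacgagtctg

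**Figure D3:**
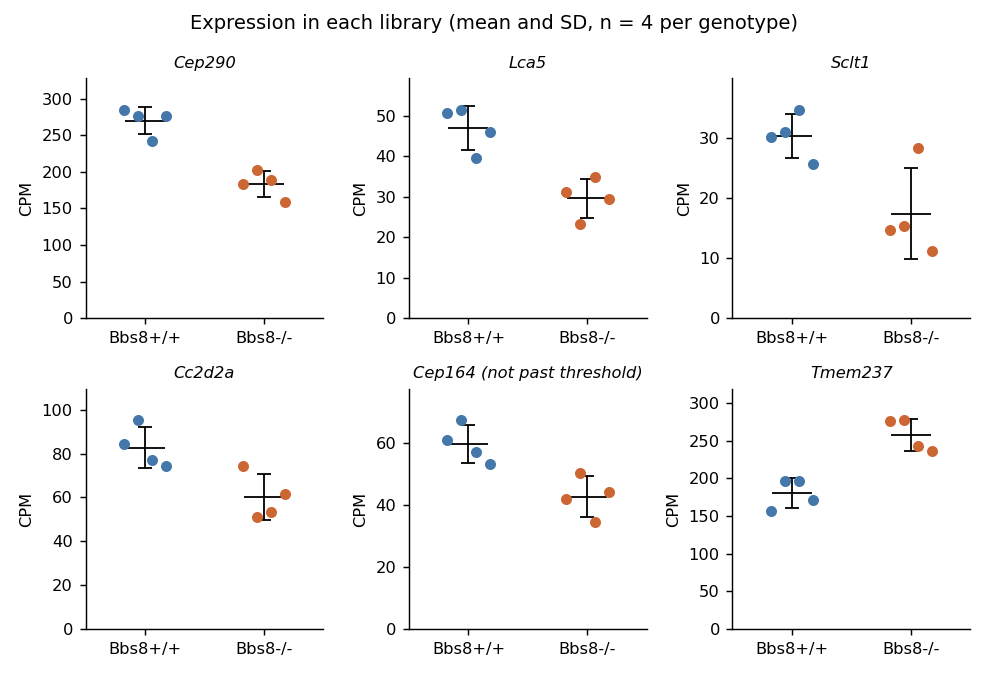
Each point is the CPM (y axis, from 0) of 1 library, *Bbs8*+/+ in blue and *Bbs8*-/- in orange, with the mean and SD of 4 libraries in black. *Cep290*, *Lca5* and *Cep164* separate without overlap, *Cc2d2a* touches, 1 *Bbs8*-/- library of *Sclt1* reaches the *Bbs8*+/+ range, and *Tmem237* separates in the opposite direction.

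*Cc2d2a* (ENSMUSG00000039765, chr5:43662346-43740972, forward strand), a C2-domain protein that ties the MKS proteins to the vesicles arriving at the cilium base, was the second MKS gene past the threshold. It was at 84.3, 95.1, 77.3 and 74.3 CPM in *Bbs8*+/+ and 74.3, 51.2, 53.2 and 61.5 CPM in *Bbs8*-/- libraries. The lowest *Bbs8*+/+ and the highest *Bbs8*-/- library met at the same rounded value. The difference by edgeR was -0.46 on the log2 scale (adjusted p = 0.0370, standard error 0.151). The adjusted p rose to 0.148 without *Bbs8*+/+ library 2, to 0.125, 0.108 and 0.0580 without *Bbs8*-/- library 2, 3 or 4, and to 0.104 under scaling by library size alone.

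The remaining 11 measured MKS genes did not pass the test. *Ahi1*, which encodes the WD40 protein jouberin, was the deepest of them and was at 208, 182, 152 and 209 CPM in *Bbs8*+/+ and 188, 181, 148 and 179.6 CPM in *Bbs8*-/- libraries. The ranges overlapped almost entirely, and the 95% interval of its log2 fold change, -0.33 to 0.12, leaves out a change as large as that of *Cep290*. *Tmem107*, a membrane protein that recruits others to the transition zone, was at 22.3, 33.9, 31.5 and 40.5 against 9.85, 29.7, 26.4 and 21.0 CPM (log2 fold change -0.55, adjusted p = 0.188), with an unadjusted p of 0.0413. The tectonic genes pointed both ways without passing, *Tctn1* at 0.42 (interval -0.28 to 1.12) and *Tctn3* at -0.89 (interval -2.01 to 0.23), the latter on a mean of 14.5 counts. The B9-domain genes *B9d1*, *B9d2* and *Mks1* had log2 fold changes of -0.10, -0.02 and -0.42. For the transmembrane genes *Tmem67*, *Tmem216*, *Tmem231* and *Tmem17* they were -0.20, -0.11, 0.12 and 0.27, and scaling or the replicate block turned the sign of *B9d2* and *Tmem67*. Summed over the 13 genes, the MKS module was at 564 to 620 CPM in *Bbs8*+/+ and 561 to 660 CPM in *Bbs8*-/- libraries, a range that overlaps while its 2 called genes moved apart.

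Among the 5 distal appendage genes, 1 fell and 4 did not pass. *Sclt1* (ENSMUSG00000059834, chr3:41626720-41742514, reverse strand), a middle layer of the appendage, was at 30.1, 31.0, 34.7 and 25.6 CPM in *Bbs8*+/+ and 14.8, 15.4, 28.4 and 11.2 CPM in *Bbs8*-/- libraries. *Bbs8*-/- libraries 1, 2 and 4 lay below all *Bbs8*+/+ libraries, and *Bbs8*-/- library 3 lay inside their range. The difference by edgeR was -0.80 on the log2 scale (adjusted p = 0.0353, standard error 0.260). The call was lost without *Bbs8*+/+ library 2 or 3 or *Bbs8*-/- library 1, 2 or 4, at adjusted p between 0.0741 and 0.131, and with scaling by library size alone (0.0684), and it strengthened to 0.00335 without *Bbs8*-/- library 3.

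*Cep164* (chr9:45766946-45828691, reverse strand), the outer appendage protein that recruits the kinase Ttbk2 to start a cilium, was at 60.9, 67.1, 56.8 and 53.1 CPM in *Bbs8*+/+ and 41.9, 50.2, 34.4 and 44.0 CPM in *Bbs8*-/- libraries. All *Bbs8*-/- libraries were below all *Bbs8*+/+ libraries, and the log2 fold change of -0.48 missed the threshold (adjusted p = 0.0589). DESeq2 gave an adjusted p of 0.0495 for it, and leaving out *Bbs8*-/- library 2 gave 0.0411 in edgeR. *Cep89* was at -0.68 on the log2 scale (adjusted p = 0.254), with 32.5 CPM in *Bbs8*+/+ library 1 and 10.6 to 14.9 CPM in the other *Bbs8*+/+ libraries, and without that library it was -0.17. *Fbf1*, at the junction of appendage and membrane, was at 0.51 (interval -0.01 to 1.02), and *Cep83*, the innermost component, at -0.07 with a sign that scaling by library size turned. The 5 genes together summed to 113 to 158 CPM in *Bbs8*+/+ and 100.2 to 115 CPM in *Bbs8*-/- libraries, with 1 library of each genotype overlapping.

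*Lca5* (ENSMUSG00000032258, chr9:83390293-83441127, reverse strand) encodes lebercilin, a microtubule-associated protein of the photoreceptor cilium that interacts with the intraflagellar transport machinery. It was at 50.8, 51.5, 39.7 and 46.1 CPM in *Bbs8*+/+ and 31.2, 23.3, 34.8 and 29.4 CPM in *Bbs8*-/- libraries, without overlap. The difference by edgeR was -0.67 on the log2 scale (adjusted p = 0.0169, standard error 0.194), or 37% lower. Leaving out *Bbs8*+/+ library 2 or *Bbs8*-/- library 2 raised the adjusted p to 0.0602 or 0.0719. *Spata7*, another protein of the connecting cilium that works with Rpgrip1, was at 12 ± 1.80 and 13.4 ± 2.30 CPM (log2 fold change 0.16, interval -0.47 to 0.80).

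The genes of the inversin compartment, a stretch of the proximal cilium best known from kidney and left-right patterning, were counted too rarely for a firm statement. *Invs*, *Anks6* and *Nek8* had means of 23.1, 7.75 and 7.38 counts and log2 fold changes of -0.34, 0.93 and 0.53, and the interval of *Anks6* ran from -0.77 to 2.62. *Anks6* was at 1.11 to 2.98 CPM in *Bbs8*+/+ libraries, in part at the floor, and at 0 to 7.6 CPM in *Bbs8*-/- libraries. The interval of *Invs* held a fall to 0.5 of the level, and those of *Anks6* and *Nek8* a rise to more than 2-fold. Changes of this size could therefore not be excluded at this depth.

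No gene of the centriole, satellite and axoneme group passed the test. *Cspp1*, a microtubule-stabilising protein, was at 83.3, 77.2, 80.1 and 69.5 CPM in *Bbs8*+/+ and 72.3, 89.2, 80.0 and 100.3 CPM in *Bbs8*-/- libraries, and its interval of -0.14 to 0.42 was the second narrowest of the genes not called. *Ofd1*, a satellite and centriole protein, was at 41.0, 25, 47.8 and 36.8 against 37.4, 29.4, 29.2 and 30.4 CPM (log2 fold change -0.25, adjusted p = 0.529). *Cep41*, which takes part in tubulin glutamylation, was at 22.7, 27.2, 44.1 and 36.0 against 28.7, 25.4, 38.0 and 38.4 CPM, a log2 fold change of 0.01 (interval -0.44 to 0.46). *Sdccag8* was at -0.32 (interval -0.95 to 0.31). Of the 2 genes that set the lipid and receptor content of the ciliary membrane, the phosphoinositide phosphatase *Inpp5e* was at 15.6, 16.8, 16.4 and 21.2 against 9.85, 12.9, 12.4 and 16.4 CPM (log2 fold change -0.43, adjusted p = 0.406), and the adaptor *Tulp3* was at 5.36 ± 2.03 and 5.71 ± 2.53 CPM.

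Most of the calls were in genes with many counts. Of the 7 genes with a mean of at least 100 counts per library, 4 were called, where 26.7% of all tested genes at that depth were, and of the 26 genes below it 1 was called, *Sclt1*, where 5.38% of all genes below it were. The limit of 100 counts was set after the values were seen. The 95% intervals reached 0.20 to 0.39 to either side of the log2 fold change in the deeper genes and 0.43 to 1.69 in the others. Of the 28 genes not called, 14 had an interval that held a change of 2-fold in at least 1 direction, 14 were bounded within 2-fold, and 3 within 1.5-fold.

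**Figure D4:**
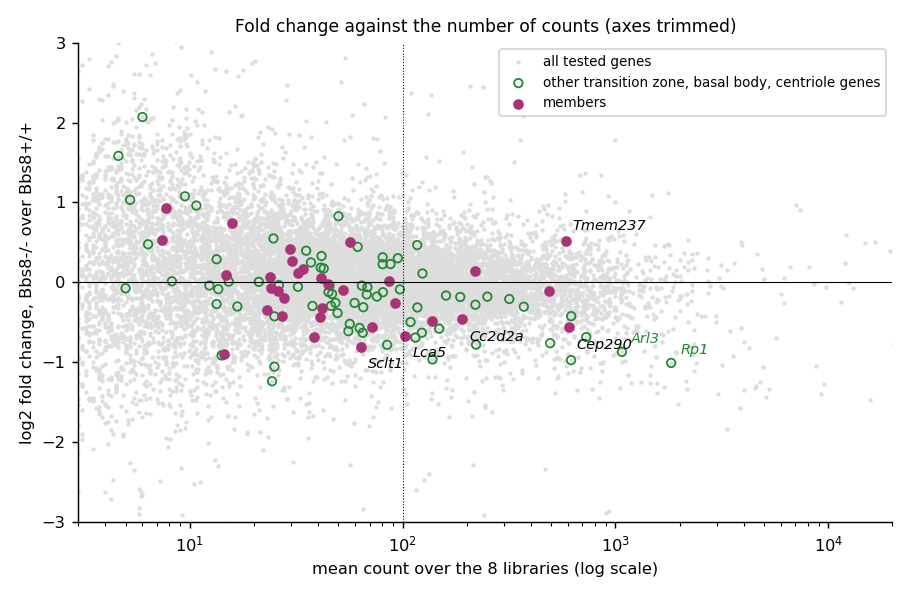
Log2 fold change (y axis, *Bbs8*-/- over *Bbs8*+/+) is plotted against the mean count over 8 libraries (x axis, log scale) for the 33 genes in purple, 74 genes of the wider list as green rings and all tested genes in grey, with 248 genes outside the axes. Right of the dotted line at 100 counts most rings and 5 of 7 purple points lie below 0.

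The same fit was read for a wider list of 81 other genes of the transition zone, basal body and centriole, of which 74 were tested. This list was written with earlier results of these data known, so its shares and sums describe the list and are no independent result. Here 13 fell and 1 rose, which is 17.6% in the lower direction against the background of 6.80% and 1.35% in the higher direction against 5.46%, and the median log2 fold change was -0.16. Genes of the photoreceptor cilium were among the falls. *Rp1*, a doublecortin protein of the outer segment axoneme, was at 907.5 ± 49.0 and 451 ± 47.0 CPM (log2 fold change -1.01, edgeR adjusted p = 1.61e-12), and its relative *Rp1l1* fell by 0.97, *Fam161a*, a connecting cilium protein, by 0.76, and *Rpgrip1*, which tethers the transition zone complex in photoreceptors, by 0.68. The small GTPases *Arl3* and *Arl13b*, which release and retain lipidated cargo in the cilium, fell by 0.87 (adjusted p = 3.57e-10) and 0.78 (adjusted p = 2.40e-04). *Inpp5e*, which Arl13b holds in the cilium, did not pass the test as given above.

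Genes of the centriole and centrosome were among the falls of the wider list as well. *Cetn3*, a centrin, fell by 0.42 (adjusted p = 0.00301), *Cep19* by 0.78, *Cep120* by 0.63, *Pcnt* (pericentrin) by 0.58, *Ccdc66* by 0.69, *D430042O09Rik* by 0.96 and *Tube1* (epsilon-tubulin) by 1.24, with adjusted p from 2.76e-04 to 0.0373. *Nin* (ninein), a subdistal appendage protein, rose by 0.83 (adjusted p = 0.0429). Leaving out 1 library ended the call of *Nin* in 6 of 8 cases, of *Tube1* in 6, of *Ccdc66* in 5, of *Pcnt* in 4 and of *Cep19* and *Cep120* in 2 each. Scaling by library size alone also ended those of *Tube1*, *Ccdc66* and *Pcnt* (edgeR adjusted p = 0.0552, 0.0744 and 0.0665), and the replicate block those of *Tube1* (0.0585), *Ccdc66* (0.0617) and *Nin*. The list was at 4363 to 4810 CPM in sum in *Bbs8*+/+ and 3067 to 3191 CPM in *Bbs8*-/- libraries, a ratio of means of 0.691, while the 33 genes were at 1243 to 1313 and 1136 to 1245 CPM, a ratio of 0.918 with 1 library of each genotype overlapping.

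Levels of rod transcripts stood beside all of these falls. The rod markers had a median log2 fold change of -1.31 and a ratio of summed levels of 0.451. The log2 fold change was -0.56 for *Cep290*, -0.67 for *Lca5*, -0.80 for *Sclt1* and -0.46 for *Cc2d2a*. Lens and erythrocyte sums had ratios of 0.138 and 0.396. RPE markers had a ratio of 1.34 but a median log2 fold change of -0.02, with 5 of 12 higher and 3 lower. The part of rod, lens or erythrocyte RNA in the lower levels of the 4 genes was not tested. For *Tmem237*, which rose, cone (ratio 1.67), Müller glia (1.23), reactive glia (13.0), ocular surface (44.5) and RPE sums were also higher. So were endothelial (1.29) and bipolar and amacrine (1.03) sums, whose libraries overlapped between genotypes. The part of all these in the rise was not tested. Computing the scaling factors without rod, cone, lens and erythrocyte markers left the calls at 1 higher and 4 lower. This changed only the scaling, with a median shift in log2 fold change of -0.002. It takes no RNA of those cells out of the counts of a gene, so it does not bear on their part.

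**Figure D5:**
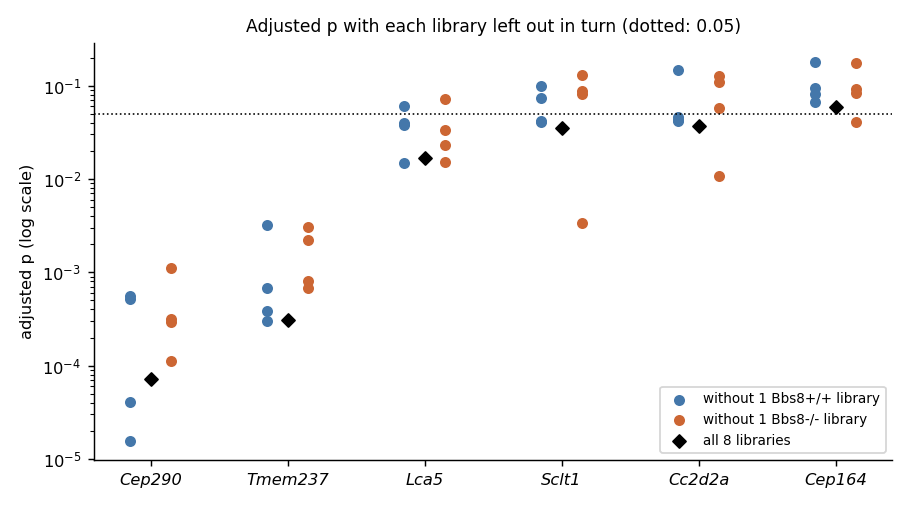
The y axis (log scale) gives the adjusted p of 6 genes with all 8 libraries (black) and with 1 *Bbs8*+/+ (blue) or 1 *Bbs8*-/- library (orange) left out, and the dotted line marks 0.05. *Cep290* and *Tmem237* stay below the line in all 8 cases, while *Lca5*, *Sclt1* and *Cc2d2a* cross it in 2, 5 and 4 cases.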

How the data were processed

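RNA of isolated RPE from 4 *Bbs8*+/+ and 4 *Bbs8*-/- mice was sequenced as QuantSeq 3′ libraries. The authors deposited 1 unnormalized table of counts per library, made with htseq-count on Ensembl genes from unique STAR alignments (mm10) of adapter-, poly-A- and quality-trimmed reads. Because only transcript ends are read, counts do not scale with length and isoforms are not separated. Levels were not compared between genes, apart from the counts of *4930430F08Rik* and *Cep290* and the ratio of *Tmem237* to *Cep290*. That ratio was read between genotypes. Reads assigned to no gene (51.0% to 54.2%) were left out.

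Symbols and coordinates came from GENCODE M21 (GRCm38), which named 31011 identifiers. The test used edgeR 4.0.16 under R 4.3.3, after the CPM filter and with TMM scaling, which also enters the CPM printed (the floor of 3 counts is on unscaled totals): the quasi-likelihood F test, two-sided, Benjamini-Hochberg adjustment, threshold 0.05. Standard errors came from the estimate and the F statistic, and 95% intervals from the t distribution on the fit's degrees of freedom. The script was tested on simulated data. The study's further filter on multi-mapping genes was not repeated. Samples were grouped by their labels alone. No 2 libraries were duplicates. Alternatives were DESeq2 1.42.0, a likelihood ratio test, other scalings, filters and thresholds, the replicate block, and each library left out. Named were all 34 genes, *Ttc8* and called genes of the wider list. Values in every library were set for called genes and the 5 deepest others, and those for a few more were given after being seen. Genes and lists were chosen with earlier results of these data known.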

Additional observations from a re-analysis of the deposited data

Results flagged for a closer look

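Of 96 groups of 4 libraries screened, 3 held a library far from the other 3, where chance alone flags about 5%. *Tctn3* was at 8.80 CPM in *Bbs8*-/- library 3 and at 1.75 to 2.87 CPM in the other *Bbs8*-/- libraries. *Ofd1* was at 37.4 CPM in *Bbs8*-/- library 1 and at 29.2 to 30.4 CPM in the others. *Tube1* was at 8.62 CPM in *Bbs8*-/- library 1 and at 4.19 to 4.66 CPM in the others.

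Reads that mapped uniquely but fell on no gene, which enter no comparison above, made up 19.8% to 20.6% of the reads in *Bbs8*-/- libraries and 17.0% to 18.4% in *Bbs8*+/+ libraries, with the highest *Bbs8*-/- library at 20.6% (two-sided exact permutation test, p = 0.029).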

How the results depend on the processing

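The 1 higher call, *Tmem237*, and the call of *Cep290* held under every alternative and without any library. The 4 lower calls became 2 under scaling by library size alone and 1 at an adjusted p of 0.01, ranged from 1 to 4 with 1 library left out, which also means fewer samples, and were 5 with DESeq2. The replicate block gave 1 higher and 4 lower genes, as without it, and the shared numbers do not pair the libraries (correlation of deviations -0.03 to 0.01). In the wider list the 1 higher gene became 2 with library size alone and 0 without a filter, with the replicate block, or at an adjusted p of 0.01, and was 0 to 1 with 1 library left out. Its 13 lower genes became 8 at 0.01, and all genes became 394 higher and 571 lower there. Signs turned for *Tmem67* under the replicate block (0.00042) and, with library size alone, for *B9d2* (0.064) and *Cep83* (0.012). With 1 library left out, log2 fold changes on both sides of 0 were found among genes not called, with lowest and highest values of -0.47 and 0.22 (*Tmem67*), -0.30 and 0.032 (*Tmem216*), -0.051 and 0.34 (*Tmem231*), -0.010 and 0.54 (*Tmem17*), -0.25 and 0.11 (*B9d1*), -0.14 and 0.057 (*B9d2*), -0.19 and 0.28 (*Iqcb1*), -0.098 and 0.17 (*Rpgrip1l*), -0.55 and 0.14 (*Cep83*), -0.13 and 0.18 (*Cep41*) and -0.21 and 0.36 (*Tulp3*). The causes were not tested. Genes under 100 counts limit most statements, since their intervals were wide.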

Other observations

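Genes of the RFX family, whose products bind the X-box, were read from the same fit because the X-box matches had been seen. Of 8 *Rfx* genes listed, 5 were tested and 1 was called, where 12.3% of all tested genes were. A link between *Rfx* levels and the genes with an X-box was not tested. *Rfx2* rose, at 1.77 ± 1.21 CPM in *Bbs8*+/+ and 10.8 ± 3.80 CPM in *Bbs8*-/- libraries (SD over 4), by 2.58 on the log2 scale (edgeR adjusted p = 0.00132), with the *Bbs8*+/+ mean close to the floor of 3 counts. *Rfx1*, *Rfx3*, *Rfx5* and *Rfx7* did not pass, with log2 fold changes of -0.61, 0.60, 0.06 and 0.59 and adjusted p of 0.138, 0.193, 0.962 and 0.116.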
